A study of Mus musculus with 4 samples.

Results

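The 9 genes examined here encode the pyruvate dehydrogenase complex and the enzymes that switch it off and on. They are the 4 pyruvate dehydrogenase kinases (Pdk1, Pdk2, Pdk3 and Pdk4), the phosphatase catalytic subunits Pdp1 and Pdp2, and the complex subunits Pdha1, Pdhb and Dlat. They were chosen as the gate of pyruvate entry into mitochondria and found by gene symbol among 19938 measured genes. All 9 were found, each with 1 probe set, a group of array probes that measures one gene. Their RNA was measured in haematopoietic stem cells (HSCs) on 2 arrays from mice labelled Hif1a-/- and on 2 arrays from wild-type (WT) mice, each pair titled as biological replicates and numbered 1 and 2. All mice were C57BL/6 and 8 weeks old. Bone marrow cells were sorted as Lin- c-Kit+ Sca-1+, a gate that also holds multipotent progenitors. The labels name no Cre driver, deleted exon or pooling of animals for the Hif1a-/- cells, and the number of arrays limits the precision of every value.

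Pyruvate dehydrogenase turns pyruvate into acetyl-CoA inside mitochondria and so commits glucose carbon to respiration. The kinases phosphorylate its E1 alpha subunit and shut it off, which leaves pyruvate to be made into lactate, and the phosphatases reverse this. In other cell types Pdk1 is a classical target of the oxygen-regulated transcription factor HIF-1, and HSCs are known for relying on glycolysis. The study compared HSCs with and without Hif1a, the gene of the oxygen-regulated HIF-1 subunit.

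Because HIF-1 binds DNA at short sites with the core ACGTG or GCGTG, both motifs were searched on either strand in promoter windows from 250 bases before to 50 bases after the annotated start of each gene (RefSeq, GRCm38.p6). Windows were found for 8 of the 9 genes, all but Pdp1. ACGTG was present in 4 of these 8 (Pdk2, Pdk3, Pdp2 and Pdhb), and in 19.6% of 27025 promoter windows of all genes. GCGTG was present in 5 of the 8 (Pdk1, Pdk3, Pdk4, Pdha1 and Pdhb), and in 32.5% of all windows. The Dlat window had neither. A match is a description of the letters and shows no binding. The windows of the 4 kinases and of Pdp2 are shown because they are the genes whose values the text returns to most. They lie at chr2:71872974-71873273 on the plus strand (Pdk1), chr11:95041322-95041621 on the minus strand (Pdk2), chrX:93832101-93832400 on the minus strand (Pdk3), chr6:5496229-5496528 on the minus strand (Pdk4) and chr8:104591222-104591521 on the plus strand (Pdp2). Each is written from 5′ to 3′ on the strand of its gene, with both motifs, on either strand, in capitals.
Pdk1: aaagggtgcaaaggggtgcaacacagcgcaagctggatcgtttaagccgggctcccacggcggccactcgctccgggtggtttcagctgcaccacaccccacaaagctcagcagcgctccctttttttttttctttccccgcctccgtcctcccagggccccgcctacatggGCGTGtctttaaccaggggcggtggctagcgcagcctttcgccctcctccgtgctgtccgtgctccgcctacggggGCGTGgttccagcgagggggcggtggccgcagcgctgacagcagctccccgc
Pdk2: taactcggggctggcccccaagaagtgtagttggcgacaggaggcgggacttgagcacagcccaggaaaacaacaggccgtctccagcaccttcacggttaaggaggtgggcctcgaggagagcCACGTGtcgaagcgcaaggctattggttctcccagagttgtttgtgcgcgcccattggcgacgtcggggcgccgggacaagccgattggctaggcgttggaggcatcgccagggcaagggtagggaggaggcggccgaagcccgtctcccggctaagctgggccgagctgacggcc
Pdk3: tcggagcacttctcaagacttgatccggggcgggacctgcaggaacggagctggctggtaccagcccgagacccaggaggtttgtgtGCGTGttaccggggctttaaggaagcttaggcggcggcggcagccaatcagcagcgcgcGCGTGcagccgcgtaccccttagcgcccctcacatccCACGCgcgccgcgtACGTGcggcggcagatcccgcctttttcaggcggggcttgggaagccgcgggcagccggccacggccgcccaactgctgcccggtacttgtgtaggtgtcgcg
Pdk4: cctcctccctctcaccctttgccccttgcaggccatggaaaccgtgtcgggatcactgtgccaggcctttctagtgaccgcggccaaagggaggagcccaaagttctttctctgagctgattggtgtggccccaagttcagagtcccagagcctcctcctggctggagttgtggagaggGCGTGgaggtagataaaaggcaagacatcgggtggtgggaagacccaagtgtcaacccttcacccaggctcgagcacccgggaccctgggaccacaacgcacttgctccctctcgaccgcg
Pdp2: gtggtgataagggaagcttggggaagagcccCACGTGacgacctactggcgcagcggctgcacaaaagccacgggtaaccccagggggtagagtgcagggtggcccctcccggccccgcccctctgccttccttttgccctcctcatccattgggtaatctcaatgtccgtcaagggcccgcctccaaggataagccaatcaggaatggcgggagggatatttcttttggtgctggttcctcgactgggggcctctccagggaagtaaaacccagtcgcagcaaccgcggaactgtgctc
In Pdk2 and in Pdp2 the capitals spell the palindrome CACGTG, in which 1 ACGTG on each strand overlap. It begins at base −126 relative to the start in Pdk2 and at −219 in Pdp2. In Pdk1 the pair of GCGTG motifs begin at −78 and −2, and in Pdk4 the single one begins at −71. Pdk3 held 1 ACGTG, at −53, and 3 GCGTG.

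The arrays numbered 2 stood apart from those numbered 1 in both genotypes, so every value is given by array. Of 12 neutrophil and granule markers, all 12 were higher on both arrays numbered 2 than on both numbered 1 (20.4% of all genes did so). So were 9 of 10 mast cell and basophil markers and 7 of 8 monocyte markers. In limma's test of array number over all genes, 10 of the 12 neutrophil and granule markers passed as higher, beside 3.29% of all genes. Of 10 measured stem and progenitor markers, 8 were lower on both arrays numbered 2 (27.2% of all genes). In the test, 5 of them passed as lower, beside 2.27% of all genes. Kit, the receptor used in the sort, had log2 signals of 11.32 and 11.51 in the Hif1a-/- and WT arrays numbered 2, against 12.37 and 12.57 in those numbered 1. The sort marker Ly6a had no probe set with a single gene symbol here. Hif1a itself gave 10.58 and 10.64 in Hif1a-/- arrays 1 and 2, against 10.37 and 10.99 in WT arrays, and since the deleted part is not given this does not check the labels. The Hif1a-/- label is therefore used throughout as the label of these arrays.

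No gene of the pyruvate dehydrogenase gate passed the test between the genotypes. In limma's moderated test over all 19938 genes, 0 genes passed an adjusted p of 0.05 (0% of genes), and 0 of the 9 genes had an unadjusted p under 0.05, against 0.727% of all genes. In the mean, 7 of the 9 were lower in Hif1a-/- (49.4% of all genes, and 71.0% of the 6167 genes with a mean signal between those of Pdp2 and Pdha1), and the median difference was −0.23 log2 units, beside 0.00 over all genes. This median rested on the arrays numbered 2, where it was −0.48 with 7 of 9 genes lower (49% of all genes), while it was 0.00 within number 1, with 5 of 9 lower (44.7% of all genes). The 6167 genes of similar brightness had a median of −0.17 within number 2, with 69.0% of them lower. Within number 1 their median was 0.00, with 48.9% lower. Without Hif1a-/- array 2 the median of the 9 genes was −0.02. Some marker lists also had medians away from 0 between the genotypes, though no list was tested as a set. The B cell list was a median 0.90 higher in Hif1a-/- within number 1 and 0.85 higher within number 2, though 0 of its 7 measured genes passed an adjusted p of 0.05 in limma. At an unadjusted p under 0.05 there were 5 of the 7, beside 0.727% of all genes. Of these, Cd79a (1.06), Ebf1 (1.41), Pax5 (0.99) and Vpreb1 (0.85) were higher and Ighm (−1.41) lower. Each had no overlap between the genotypes, beside 16.1% of all genes higher and 8.33% lower without overlap. Cd79b (0.37) and Ms4a1 (0.10) overlapped. All 10 stem and progenitor genes were lower in the mean, with medians of −0.16 within number 1 and −0.37 within number 2, and all 8 T and NK cell genes higher, with medians of 0.07 and 0.34. The 7 erythroid and megakaryocyte genes were all lower in the mean, with a median of 0.00 within number 1 and −0.48 within number 2. The granule list had −0.22 within number 1 and 0.78 within number 2. The part of these lists in the values of the 9 genes was not tested.

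**Figure D1:**
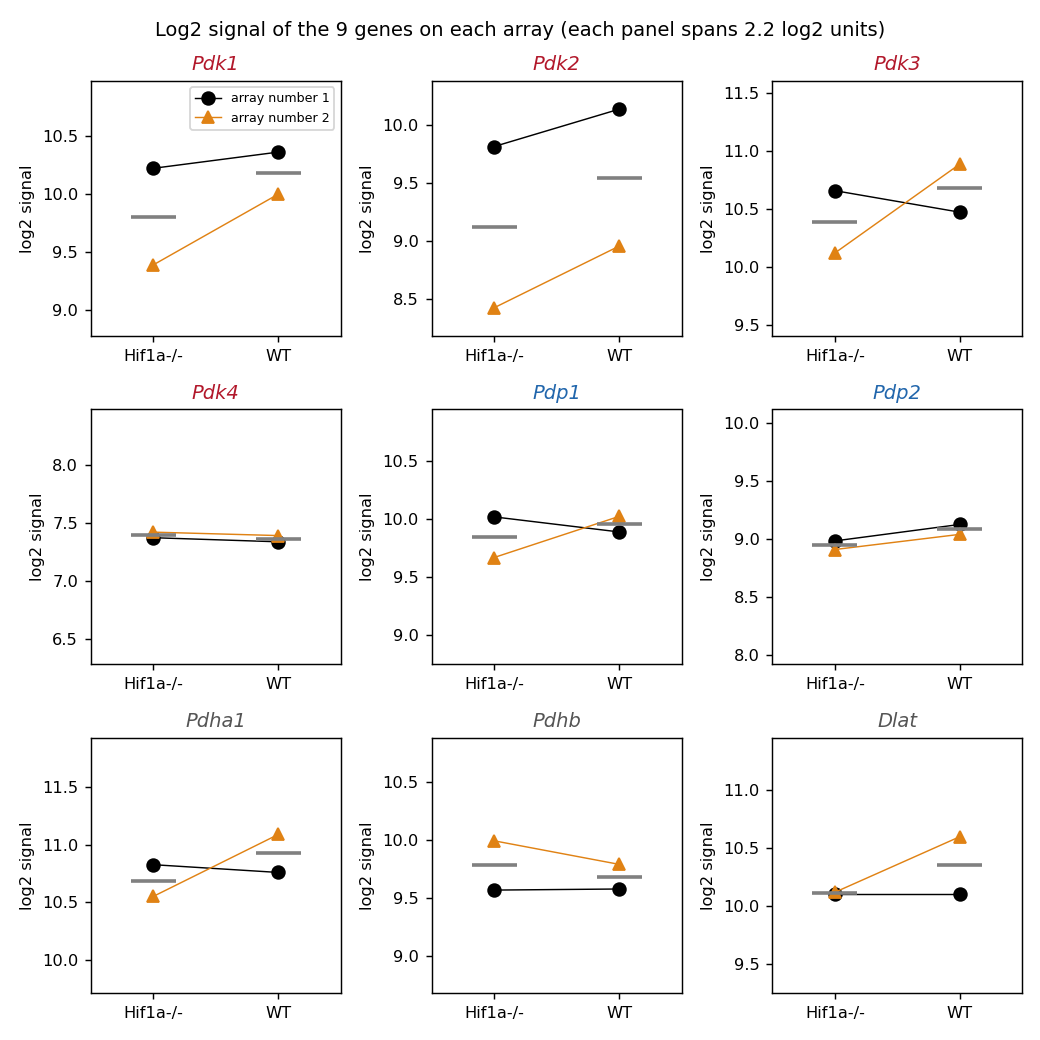
Log2 signal (vertical axis) of the 9 genes in Hif1a-/- and WT HSCs (horizontal axis), with circles for arrays numbered 1, triangles for arrays numbered 2, lines joining arrays of the same number and grey bars for the mean of each genotype. Pdk2 ranged over 1.71 log2 units and Pdk4 over 0.08, and Hif1a-/- array 2 was the lowest of the 4 for 6 of the 9 genes.

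Among the kinases, Pdk1 and Pdk2 were lower in Hif1a-/- within both array numbers, but neither passed the test. The main fit leaves out array number, so the gap between the numbers counts as spread in its SE. With array number in the model as a replicate block, the SE was 0.16 for Pdk1 and 0.14 for Pdk2. Neither passed there (adjusted p = 0.980 for each in limma). Pdk1, the isoform best known as a HIF-1 target, had log2 signals of 10.22 and 9.39 in Hif1a-/- arrays 1 and 2, against 10.36 and 9.999 in WT arrays 1 and 2. The genotypes overlapped, as Hif1a-/- array 1 lay above WT array 2. The difference was −0.38 (SE 0.34, 95% interval −1.32 to 0.57; adjusted p = 0.9998 in limma), with −0.14 within number 1 and −0.61 within number 2.

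Pdk2, a broadly expressed isoform, had 9.81 and 8.42 in Hif1a-/- arrays, against 10.13 and 8.95 in WT arrays. Here too the genotypes overlapped, and the arrays of each number lay closer together than those of each genotype. The difference was −0.43 (SE 0.65, 95% interval −2.25 to 1.39), with −0.32 within number 1 and −0.53 within number 2. Leaving out Hif1a-/- array 2 turned the sign of both Pdk1 (0.04) and Pdk2 (0.27), and leaving out WT array 1 turned Pdk2 (0.16).

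Pdk3, the isoform whose gene lies on the X chromosome, had genotype differences of opposite sign in the 2 array numbers. It had 10.66 and 10.12 in Hif1a-/- arrays, against 10.47 and 10.89 in WT arrays, a difference of 0.19 within number 1 and −0.77 within number 2. The fitted difference was −0.29 (SE 0.26), with −0.02 without Hif1a-/- array 2 and −0.56 without Hif1a-/- array 1. Pdk4, the isoform induced by fasting and fatty acids in muscle and liver, showed the narrowest range of the 9. Its signals were 7.37 and 7.42 in Hif1a-/- arrays, against 7.34 and 7.39 in WT arrays. The difference was 0.03 (SE 0.11, 95% interval −0.27 to 0.33), and its sign turned under quantile normalization, median centring and cyclic loess. The mean signal of its probe set lay at percentile 23.1 of all genes.

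The phosphatases, which reactivate the complex, differed little. Pdp2 had 8.99 and 8.91 in Hif1a-/- arrays, against 9.13 and 9.04 in WT arrays. It was the 1 gene of the 9 with both Hif1a-/- arrays below both WT arrays. The same held for 8.33% of all genes and for 724 of the 6167 genes of similar brightness. None of the 9 lay above, as did 16.1% of all genes and 277 of those 6167. The Pdp2 difference was −0.14 (SE 0.11, adjusted p = 0.9998 in limma) and was nearly equal in number 1 (−0.14) and number 2 (−0.13). Pdp1, the calcium-sensitive phosphatase, had 10.02 and 9.67 in Hif1a-/- arrays, against 9.89 and 10.03 in WT arrays. Its difference was −0.11 (SE 0.17) and lay on opposite sides of 0 in number 1 (0.13) and number 2 (−0.35).

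The subunits of the complex did not share a sign. Pdha1, the E1 alpha subunit that the kinases phosphorylate, had 10.83 and 10.55 in Hif1a-/- arrays, against 10.76 and 11.09 in WT arrays, and differed by −0.23 (SE 0.18), with −0.07 without WT array 2 and −0.40 without WT array 1. Dlat, the E2 core that carries the lipoyl groups to which the kinases bind, had 10.10 and 10.12 in Hif1a-/- arrays, against 10.10 and 10.60 in WT arrays. Its difference of −0.24 (SE 0.21) was 0.01 without WT array 2. Pdhb, the E1 beta subunit, had 9.57 and 9.99 in Hif1a-/- arrays, against 9.58 and 9.79 in WT arrays. It was the 1 subunit higher in the mean in Hif1a-/-, by 0.10 (SE 0.20), and its sign turned without Hif1a-/- array 2 (−0.12) and without WT array 1 (−0.01).

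Counted within each array number, 4 of the 9 genes were lower in Hif1a-/- both times (Pdk1, Pdk2, Pdp2 and Dlat, the last equal to 2 decimals within number 1), beside 21% of all genes and 30.7% of the genes of similar brightness. Hif1a-/- array 2 was the lowest of the 4 arrays for 6 of the 9 genes, beside 31.1% of all genes and 47.0% of the genes of similar brightness.

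**Figure D2:**
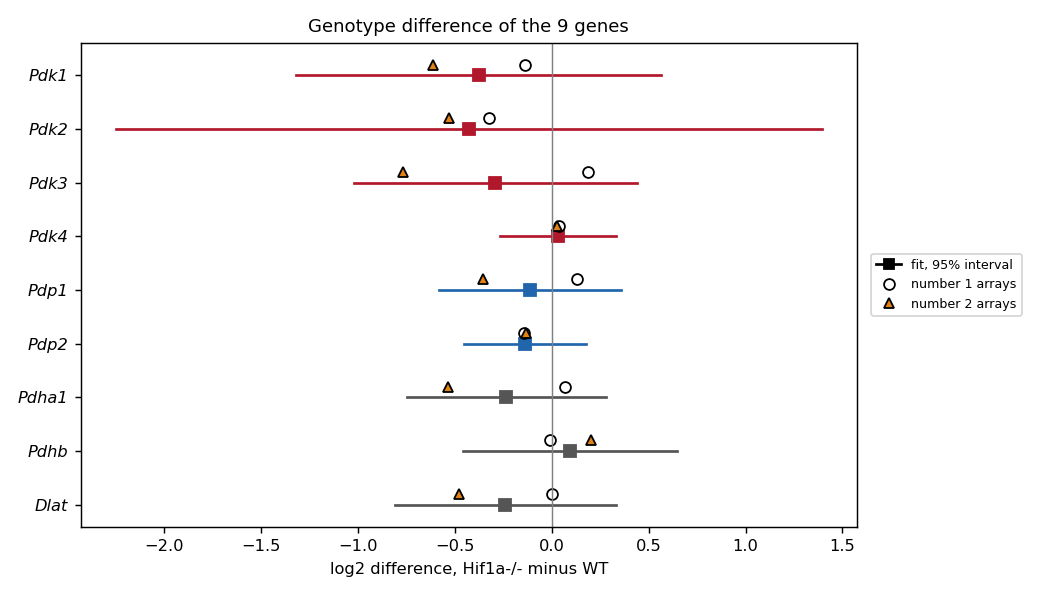
Difference in log2 signal between Hif1a-/- and WT (horizontal axis) for each gene (vertical axis), as fitted by limma (squares, with 95% intervals as lines), within arrays numbered 1 (circles) and within arrays numbered 2 (triangles). Every interval crosses 0, and the widest is that of Pdk2, from −2.25 to 1.39.

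Between the array numbers, 1 gene of the gate passed the test, Pdk2. Across both genotypes Pdk2 fell on the arrays numbered 2. Its signals there were 8.42 (Hif1a-/-) and 8.95 (WT), against 9.81 (Hif1a-/-) and 10.13 (WT) on the arrays numbered 1. All arrays numbered 2 lay below all numbered 1. With genotype in the model, the difference of number 2 minus number 1 was −1.29 log2 units (SE 0.14, 95% interval −1.63 to −0.94, or 2.44-fold lower; adjusted p = 0.0118 in limma), with −1.39 in Hif1a-/- and −1.18 in WT. Over all genes this test called 1108 genes (5.56%), 452 of them lower (2.27%), and Pdk2 was the 1 gene of the 9 among them. At an unadjusted p under 0.05 there were 2 of the 9 (Pdk1 and Pdk2), against 18% of all genes. Of the 6167 genes of similar brightness, 1727 were under that value, and 227 were called lower at the adjusted threshold. The adjusted p of Pdk2 lay between 0.00116 and 0.0489 under the alternatives in which it could be tested. With 4 arrays and 1 residual degree of freedom, this test leans on the spread shared over all genes. In bulk samples like these, fewer cells of a type and less RNA per cell cannot be told apart.

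Pdk1 was lower on the arrays numbered 2 as well, with no overlap, but did not pass. Its signals were 9.39 (Hif1a-/-) and 9.999 (WT) in number 2, against 10.22 (Hif1a-/-) and 10.36 (WT) in number 1, a difference of −0.60 (SE 0.16; adjusted p = 0.130 in limma). Under quantile normalization it passed (adjusted p = 0.0436 in limma), where the adjusted p over all tested alternatives lay between 0.0436 and 0.338. Pdk3 differed by −0.06 (SE 0.25), with −0.54 in Hif1a-/- and 0.42 in WT. Pdk4 differed by 0.05 (SE 0.13). The 4 kinases thus had number differences from −1.29 to 0.05, whose differences from each other were not tested.

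The other genes had smaller number differences than Pdk1 and Pdk2, with wide intervals. Pdhb was 0.32 higher on the arrays numbered 2 (SE 0.14; adjusted p = 0.322 in limma) and Dlat 0.26 higher (SE 0.17), both with no overlap between the numbers, though for Dlat the gap was 0.02 in Hif1a-/-. With Pdk4 they were the 3 genes of the 9 with both arrays numbered 2 above both numbered 1 (20.4% of all genes), and Pdk1 and Pdk2 the 2 below (27.2%). Pdha1 differed by 0.03 (SE 0.18), Pdp1 by −0.11 (SE 0.17) and Pdp2 by −0.08 (SE 0.13).

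**Figure D3:**
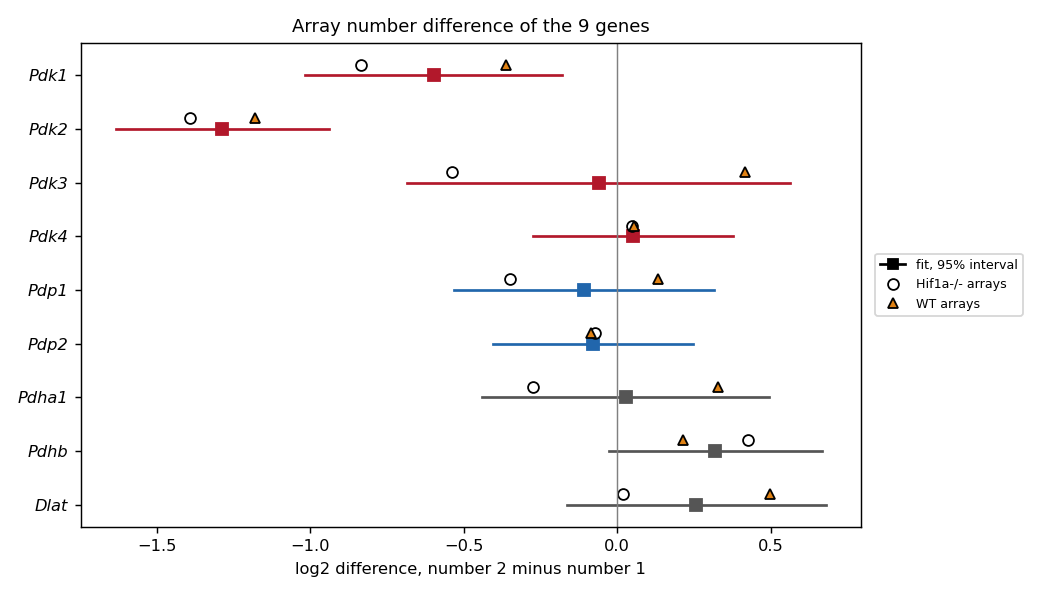
Difference in log2 signal between arrays numbered 2 and numbered 1 (horizontal axis) for each gene (vertical axis), as fitted by limma with genotype in the model (squares, with 95% intervals as lines), within Hif1a-/- (circles) and within WT (triangles). Pdk2 and Pdk1 lie left of 0 in both genotypes, Pdk2 at −1.39 and −1.18, and Pdk3, Pdp1 and Pdha1 lie on opposite sides of 0 in the 2 genotypes.

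The array pattern of Pdk2 lay beside that of the stem cell markers. Centred on its own mean, Pdk2 was 0.48 and −0.91 on Hif1a-/- arrays 1 and 2, against 0.80 and −0.38 on WT arrays 1 and 2. The median of the stem and progenitor list was 0.38 and −0.59 on the Hif1a-/- arrays, against 0.62 and −0.37 on the WT arrays. The neutrophil and granule list ran the other way, at −1.17 and 1.44 on the Hif1a-/- arrays, against −0.94 and 0.59 on the WT arrays. The mast cell, monocyte and T and NK cell lists also lay below 0 on the arrays numbered 1 and above 0 on those numbered 2. Of all genes, 27.2% were lower on both arrays numbered 2 than on both numbered 1. The part of these cell types in the Pdk2 values was not tested.

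Over all genes, the 5 with the smallest root mean square distance to Pdk2's centred profile on the 4 arrays were Zfp521 (0.04 log2 units), Nynrin (0.05), Osbpl1a (0.05), Spns2 (0.06) and Dlg4 (0.06). Their signals were between 1.21 and 1.37 log2 units lower on the arrays numbered 2, which follows from how they were chosen. Zfp521, a zinc finger regulator of progenitor cells, had 9.30 and 7.89 on Hif1a-/- arrays 1 and 2, against 9.59 and 8.32 on WT arrays. This likeness rests on 4 arrays and carries no test.

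**Figure D4:**
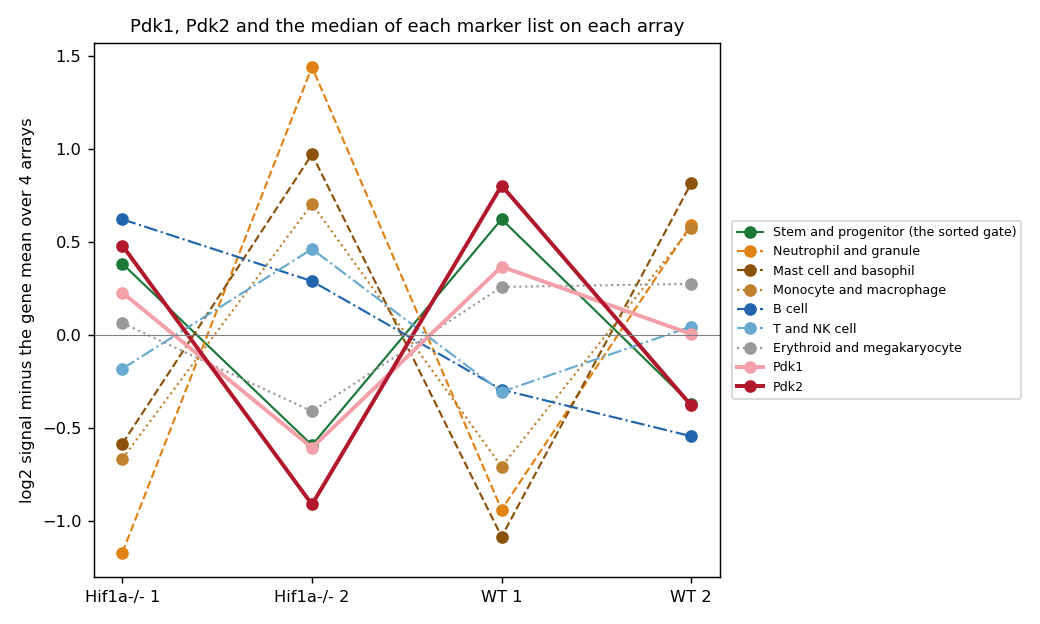
Log2 signal minus the mean of each gene over the 4 arrays (vertical axis) on each array (horizontal axis), for Pdk1 and Pdk2 (thick lines) and as the median of each marker list (thin lines). Pdk2 lies at −0.91 on Hif1a-/- array 2 and at 0.80 on WT array 1. On all 4 arrays it lies on the same side of 0 as the stem and progenitor list. The neutrophil, mast cell, monocyte and T and NK cell lists lie on the other side.

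Genes that work beside the gate gave no call between the genotypes either. Of 66 genes in 5 further lists 60 were measured. Of these, 0 passed between the genotypes in limma, 0 had an unadjusted p under 0.05, and 48 were lower in the mean in Hif1a-/-, beside 49.4% of all genes and 71.0% of the genes of similar brightness to the gate. Their median was −0.10 log2 units (0.03 within number 1, −0.31 within number 2), beside −0.09 for the genes of similar brightness. The medians of single lists moved with 1 array. Their counts are set beside the same shares, which are not matched in brightness to each list. The 71.0% covers mean signals between those of Pdp2 and Pdha1. Genes such as Idh3g (12.53) and Ldha (12.78) lay above that range, and Me1 (7.54) below. In the rest of the complex and its lipoate supply, 7 of 7 genes were lower in the mean. Their median was −0.24, with 0.06 within number 1 and −0.53 within number 2, and −0.07 without Hif1a-/- array 2. Pdpr, the regulatory subunit of the phosphatase, had 9.84 and 9.40 in Hif1a-/- arrays, against 9.92 and 9.96 in WT arrays, a difference of −0.32 (SE 0.19). Among the 5 genes of the branched-chain ketoacid dehydrogenase, a sister complex with a kinase and a phosphatase of its own, 4 were lower in the mean, with a median of −0.24 that was −0.12 without Hif1a-/- array 2. Its E1 genes Bckdha and Bckdhb differed by −0.24 (SE 0.13) and −0.47 (SE 0.27). Each had no overlap between the genotypes, which was a condition for naming genes of these lists. Both Hif1a-/- arrays lay below both WT arrays for 8.33% of all genes and for 724 of the 6167 genes of similar brightness.

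Pyruvate and lactate genes had a median genotype difference of −0.08 over 16 measured members, with 11 lower in the mean. The median was 0.09 without WT array 2 and −0.23 without WT array 1. Me3, a mitochondrial malic enzyme that makes pyruvate from malate, had 7.90 and 7.98 in Hif1a-/- arrays, against 7.67 and 7.60 in WT arrays, a difference of 0.31 (SE 0.11, unadjusted p = 0.0507 and adjusted p = 0.9998 in limma). Pcx, pyruvate carboxylase, differed by 0.05 (SE 0.11). Of 16 citric acid cycle genes 15 were lower in the mean, with a median of −0.13, made up of 0.11 within number 1 and −0.41 within number 2. It was 0.06 without WT array 2 and −0.34 without WT array 1.

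Among 16 genes known to act on Pdk genes or on the same switch, the median was −0.06, and 0.07 without WT array 1. Foxo1, a forkhead factor that activates Pdk4 in muscle and liver, had 10.18 and 10.02 in Hif1a-/- arrays, against 9.81 and 9.47 in WT arrays. It was 0.46 higher in the mean (SE 0.17, adjusted p = 0.9998 in limma). Ppara, another activator of Pdk4, differed by 0.09 (SE 0.11), and Arnt, the partner subunit of HIF-1, by −0.07 (SE 0.11). Both had no overlap between the genotypes, the condition under which they were named. Of the 16 genes, 2 lay higher and 1 lower without overlap, beside 16.1% and 8.33% of all genes.

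**Figure D5:**
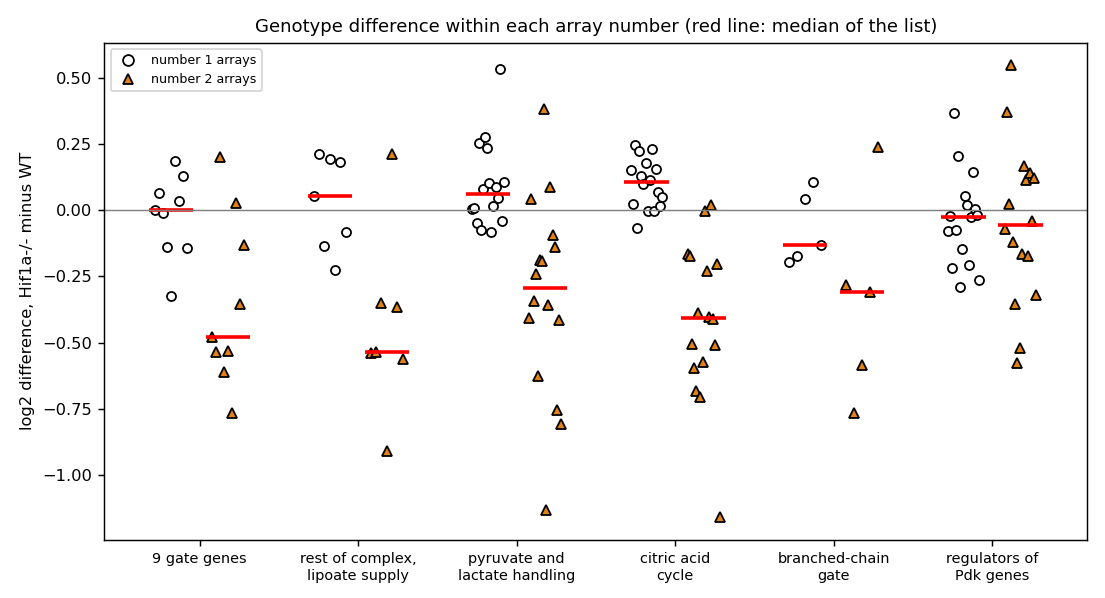
Difference in log2 signal between Hif1a-/- and WT (vertical axis) for every measured gene of the 9-gene gate and of the 5 further lists (horizontal axis), within arrays numbered 1 (circles) and within arrays numbered 2 (triangles), with the median of each list as a red line. The median of the 9 genes is 0.00 within number 1 and −0.48 within number 2, and that of the citric acid cycle 0.11 and −0.41.

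Between array numbers, 6 of the 60 further genes passed, 2 higher and 4 lower on the arrays numbered 2 (3.29% and 2.27% of all genes). Ldhb, the lactate dehydrogenase subunit that favours lactate oxidation, fell by 1.25 (SE 0.18, adjusted p = 0.0237 in limma). Its signals were 7.65 (Hif1a-/-) and 8.27 (WT) in number 2, against 9.17 (Hif1a-/-) and 9.24 (WT) in number 1. Pklr, the pyruvate kinase of liver and red cells, rose by 1.07 (SE 0.13, adjusted p = 0.0179 in limma), with 9.51 (Hif1a-/-) and 9.60 (WT), against 8.53 (Hif1a-/-) and 8.44 (WT).

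The other 4 were regulators. Meis1, a stem cell homeobox factor known to activate Hif1a in HSCs, fell by 2.28 (SE 0.14, adjusted p = 0.00403 in limma). Sirt3, a mitochondrial deacetylase, fell by 1.12 (SE 0.13, adjusted p = 0.0148 in limma) and Foxo3, a forkhead factor needed for HSC maintenance, by 0.70 (SE 0.13, adjusted p = 0.0476 in limma). Pparg, a nuclear receptor, rose by 0.74 (SE 0.13, adjusted p = 0.0437 in limma).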

How the data were processed

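The submitters' processing notes name RMA and Affymetrix Expression Console 1.1, with which the authors made the deposited log2 values. The log base was read from the range of the values (3.08 to 14.88). RMA scales the arrays to each other before deposit, so a change common to all genes cannot be read from the values. The deposited arrays still differed. The median over probe sets was 8.35 in Hif1a-/- array 2 and 8.19 in WT array 2, with interquartile ranges of 2.49 and 2.78. No build is named in the labels used here. Of 35556 probe sets, 21789 matched a single gene symbol in the platform's annotation. The brightest probe set stood for each of 999 genes that had several, which left 19938 genes, and no dim gene was filtered out. Arrays were grouped by their titles, and 0 columns belonged to other samples.

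The test of genotype was limma's moderated two-sided one without covariates (version 3.58.1, R 4.3.3), and array numbers were tested with genotype as a covariate. Benjamini-Hochberg adjustment ran over all genes, with a threshold of 0.05, and the steps were tested on simulated data. The count of arrays limits the precision: the median SE of a genotype difference was 0.15. The members and lists were chosen with earlier results of these data known. Named genes are the 9 members, up to 2 genes per direction and list with no overlap and the smallest p, list genes past the threshold, Hif1a and the 5 genes most like the kinase of widest range. Outside this rule, Kit and the B cell genes Cd79a, Cd79b, Ebf1, Ms4a1, Pax5, Vpreb1 and Ighm were named after their values were seen. Alternatives were a replicate block, leaving out 1 array at a time, scaling by median centring, by cyclic loess or by quantiles, dropping the dimmest 40% of genes, averaging probe sets, and eBayes with trend and robust. For array number, the fit without genotype replaced the block. Promoter sequences are RefSeq's (GRCm38.p6), using the window nearest to the annotated gene start.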

Additional observations from a re-analysis of the deposited data

How the results depend on the processing

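Between the genotypes, 0 genes over all genes and 0 of the 9 members were called under each of the 11 alternative settings. The replicate numbers of the titles are not stated to mark a shared litter, batch or day, though deviations of same-numbered arrays correlated at 0.669 over all genes. With the replicate block, the SE of Pdk2 was 0.14 and its unadjusted p 0.0244, and 0 genes passed (adjusted p = 0.980 for Pdk2 in limma). The block changed no call.

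The median genotype difference of the 9 genes ranged from −0.288 to −0.0218 with an array left out, and was −4e-05 within number 1 and −0.48 within number 2, an alternative chosen after seeing the data. With other scalings this median was −0.155 under quantile normalization, −0.144 under cyclic loess and −0.321 under median centring. Signs turned for 10 values of members and kept for 88. With an array left out, Pdk1 ranged from −0.792 to 0.0414, Pdk2 from −1.12 to 0.268, Pdk3 from −0.560 to −0.0218, Pdha1 from −0.399 to −0.0698, Pdp1 from −0.288 to 0.0631, Pdhb from −0.116 to 0.310 and Dlat from −0.488 to 0.00851. Pdk4 was −0.0778 under quantile normalization, −0.0546 under median centring and −0.0569 under cyclic loess. The cause was not tested. A genotype left with 1 array is assumed to vary like the other.

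Between array numbers, 1777 genes were called under quantile normalization, with 2 members (Pdk1 and Pdk2), and 440 under median centring, against 1108 as reported. Pdk2 remained called under each alternative with a test. With an array left out no residual degree of freedom remained, so values carry no test: the median of the 9 genes ranged from −0.27 to 0.13, Pdk3 from −0.54 to 0.42, Pdp1 from −0.35 to 0.13 and Pdha1 from −0.27 to 0.33. Pdha1 was also −0.0248 under quantile normalization. Pdk4 had no value without the dimmest 40% of genes.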
